A study of Homo sapiens with 4 samples.

Results

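The genes described here build the machinery that loads peptides onto MHC class I molecules. They are B2M, HLA-E, HLA-F, TAP1, TAP2, TAPBP, TAPBPL, ERAP1, ERAP2 and NLRC5, 10 of the 18132 genes that the platform annotation pairs with a probe set carrying exactly 1 gene symbol. They are read by 47 of the 44988 such probe sets. The RNA came from SCC-9, a human cell line derived from a squamous carcinoma of the tongue. Cells were transfected with miR-585-5p mimics at 30 nM (2 arrays) or with the control small RNA miR-NC (2 arrays), 24 hours after seeding, and were collected 36 hours after transfection. Total RNA was measured on PrimeView human arrays as probe set intensity, a linear brightness. The mimic is an added oligonucleotide that no probe set reads, and the cells are a single tumour line. The comparison asks how an excess of miR-585-5p shifts the transcripts of these cells.

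Class I molecules show fragments of a cell's own proteins to CD8+ T cells and natural killer cells. Peptides cut by the proteasome are carried into the endoplasmic reticulum by the transporter TAP, trimmed by the aminopeptidases ERAP1 and ERAP2, and fitted into the groove of a heavy chain paired with beta-2-microglobulin while tapasin holds the complex beside TAP. Interferon gamma raises most of these genes through IRF1, and the regulator NLRC5 acts at their promoters together with RFX, CREB/ATF and NF-Y proteins. Loss of this machinery is a common way for squamous tumours to hide from T cells. The agent added to the cells is a short RNA whose bases 2 to 8, the seed, usually decide which transcripts it pairs with, and the seed stands in capitals in the RefSeq mature sequence (GRCh38.p14).
miR-585-5p: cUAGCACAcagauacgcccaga
The mature strand has 22 bases and lies at chr5:169263649-169263670 on the minus strand. None of the other human mature microRNAs in the RefSeq table, which holds 2370 names, shares these seed bases, the count of others being 0.

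The 4 arrays were close in scale, with median intensities of 30.6 to 31.3. Pearson's r over all probe sets, a description since probe sets are not replicates, was 0.998 between the mimic arrays, 0.997 between the miR-NC arrays and 0.978 to 0.983 between groups. Each gene took its brightest probe set, and 14123 genes with a mean above intensity 12.04 were tested with limma, as mimic minus miR-NC. No label says whether the replicate arrays were grown as separate cultures, so the spread between these arrays is possibly a technical one. The limma SE and p-values moderate each gene's own spread (residual df 2) towards that of genes of like intensity (prior df 8.35). They therefore do not measure the spread of a gene's own arrays alone. With 2 arrays per group, the number of arrays limits the precision. The squamous markers KRT5, KRT14 and CDH1, the 3 of 6 listed with a probe set used, read 787 to 8637 on all 4 arrays. KRT14 (log2 change 0.97) and KRT5 (0.24) were higher with the mimic and CDH1 (-1.26) was lower, each at a limma adjusted p under 0.05. Markers of other cells were dimmer than these, and some were above background. On all 4 arrays CD14, PDGFRB (34.7 to 40.9), NKG7 (26.0 to 33.8) and CSF1R (18.8 to 26.4) read above the control probe sets with no human target. PTPRC, the leukocyte common antigen, read at most 3.94 and the fibroblast genes DCN, COL3A1 and LUM at most 10.6, where control probe sets with no human target reached 16.8. Of the 5 leukocyte markers with a probe set, CD14 rose, CSF1R fell, and CD3E, NKG7 and PTPRC had lower means with the mimic without a call. The tested ones had a median log2 change of -0.24. CD14 read 103 and 86.3 on the mimic arrays, against 54.9 and 63.3 on the miR-NC arrays. The summed intensity of the list, in which CD14 is the only marker with a higher mean, was 150 to 171 on the mimic arrays, against 134 to 142 on the miR-NC arrays, and PTPRC was below background on all arrays. That of the 5 fibroblast markers was 71.6 to 75.8 on the mimic arrays, against 73.0 to 75.5 on the miR-NC arrays, with 3 below background. Their part in the results was not tested.

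The class I loading genes did not move in 1 direction. At a limma adjusted p under 0.05, 5 of the 9 tested members passed, where 55.0% of all genes tested did. TAP2 and B2M rose, while HLA-E, TAP1 and NLRC5 fell. HLA-F, TAPBP, TAPBPL and ERAP1 did not pass, and ERAP2 was under the intensity filter. By direction, 28.1% of all genes rose and 26.9% fell, so neither the number of members called nor their split stood apart from the background. The members' median log2 change was 0.020, against -0.058 over all genes tested, and the changes of those above background ran from -0.37 (HLA-E) to 0.65 (TAP2). The arrays of the groups did not overlap for 7 of the 9 tested members, against 79.4% of all genes tested. Only TAP2 passed with a change of at least 1.5-fold, 1 of 9, where 22.3% of all genes did. In RNA from a whole culture, fewer cells making a transcript and less of it per cell cannot be told apart. Changes are relative to the array as a whole: with the arrays set to the added poly(A) spikes, every change is lower by 0.34 on the log2 scale, the median gene is at -0.40, and 1 member was higher and 4 were lower.

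**Figure D1:**
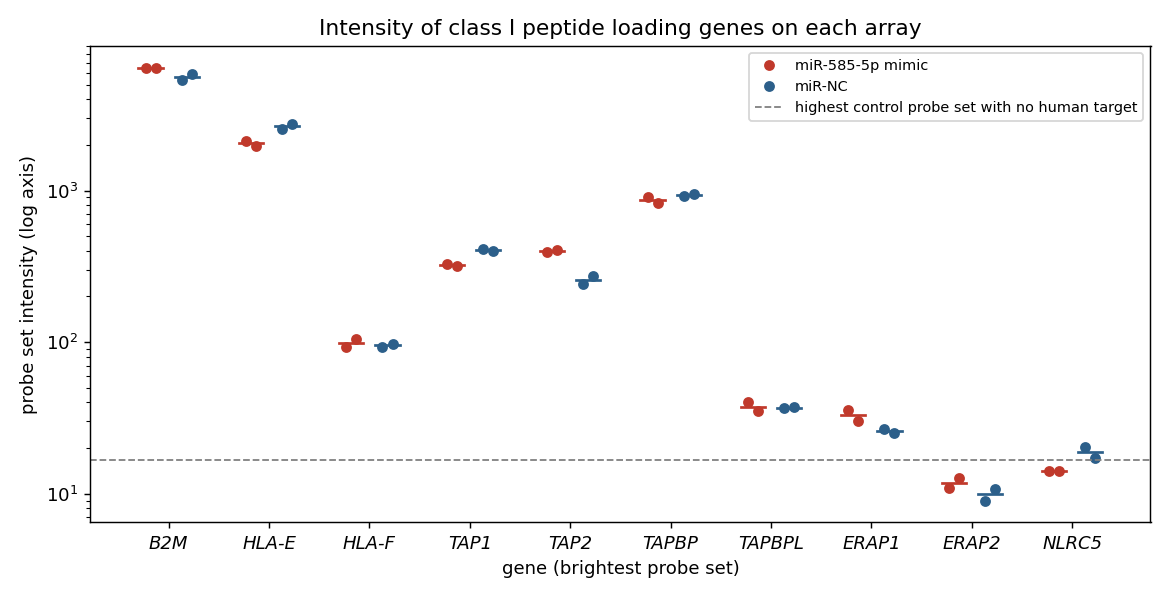
Probe set intensity (log axis) of the brightest probe set of each gene on the 2 mimic arrays (red, left) and the 2 miR-NC arrays (blue, right), with horizontal bars at the group means and a dashed line at 16.8, the highest control probe set with no human target. The groups overlap for HLA-F and TAPBPL and not for the other 8 genes, and all 4 arrays of ERAP2 and both mimic arrays of NLRC5 lie under the dashed line.

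B2M encodes beta-2-microglobulin, the light chain that every class I heavy chain needs to fold and leave the endoplasmic reticulum. Its brightest probe set read 6395 and 6480 on the mimic arrays, against 5383 and 5892 on the miR-NC arrays. Both mimic arrays lay above both miR-NC arrays. The log2 change was 0.19 ± 0.046 (SE, n = 2 per group), a 1.14-fold rise (limma adjusted p = 0.00428), and 65.4% of the genes tested had a larger change in size. All 8 B2M probe sets passed in the fit across probe sets, each higher with the mimic, where 51.4% of all tested probe sets passed and 27.2% were higher. Their log2 changes ran from 0.15 to 0.54. A pair of these probe sets holds identical values on all arrays, and so counts as 1 measurement. The size of the rise differed between probe sets: the mean over all 8 was 0.32. The sign turned with the poly(A) spikes (-0.15), and the gene missed the threshold without mimic replicate 1 (adjusted p = 0.0614), without mimic replicate 2 (adjusted p = 0.0858) or with no mean-variance trend (adjusted p = 0.0877). Without miR-NC replicate 1 the change was 0.13.

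HLA-E, a non-classical heavy chain that shows leader peptides of other class I chains to the NKG2A and NKG2C receptors of natural killer cells, fell. Its intensity was 2120.3 and 1973 on the mimic arrays, against 2562 and 2735 on the miR-NC arrays, without overlap. The log2 change was -0.37 ± 0.052 (SE, limma adjusted p = 1.23e-04), 1.29-fold lower. Of its 6 probe sets, 5 fell, where 24.2% of all tested probe sets did, and the other was at -0.19. The lowest change belonged to a probe set at 395 and 342 on the mimic arrays, against 631 and 681 on the miR-NC arrays, a log2 change of -0.83 ± 0.079 (SE). Class I heavy chains are alike in sequence, and every HLA-E probe set carries a suffix (_s_at or _x_at) that marks possible cross-hybridization, so how much of its signal comes from other heavy chains was not tested. The classical chains HLA-B and HLA-C, read by probe sets with the same kind of suffix, both rose.

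The HLA-B probe set read 653 and 643 on the mimic arrays, against 451 and 425 on the miR-NC arrays, a log2 change of 0.56 ± 0.061 (SE, limma adjusted p = 1.71e-05). HLA-C, named here after its values were seen, read 2051 and 2105 on the mimic arrays, against 1568 and 1795 on the miR-NC arrays, a log2 change of 0.31 ± 0.062. Scaled to the poly(A) spikes, HLA-C was at -0.031 and HLA-B at 0.23, and neither passed. HLA-F, a non-classical chain found largely inside cells and as an open form at the surface, did not pass. It read 92.3 and 105 on the mimic arrays, against 93.5 and 97.8 on the miR-NC arrays, and the groups overlapped (log2 change 0.045 ± 0.10, SE). None of the 5 tested HLA-F probe sets passed, and the other 5 of its 10 were under the filter. The brightest HLA-F probe set carries the _x_at suffix as well, and how much of its signal comes from other heavy chains was not tested. RefSeq lists a pseudogene and an antisense gene within the span of HLA-F.

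The light and heavy chains were also set against each other within each array. These pairs were chosen with the directions of their genes known, so the differences restate those changes. The log2 difference B2M minus HLA-E was 1.59 and 1.72 on the mimic arrays, against 1.07 and 1.11 on the miR-NC arrays, a change of 0.56. For HLA-C minus HLA-E it was -0.048 and 0.093 on the mimic arrays, against -0.71 and -0.61 on the miR-NC arrays, a change of 0.68. Such a difference within an array does not change when an array is multiplied by a constant. The exact permutation test over arrays gave p = 0.333 for each (two-sided, and 0.333 adjusted over the 4 pairs compared in all), which is the smallest that 2 arrays against 2 can give.

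**Figure D2:**
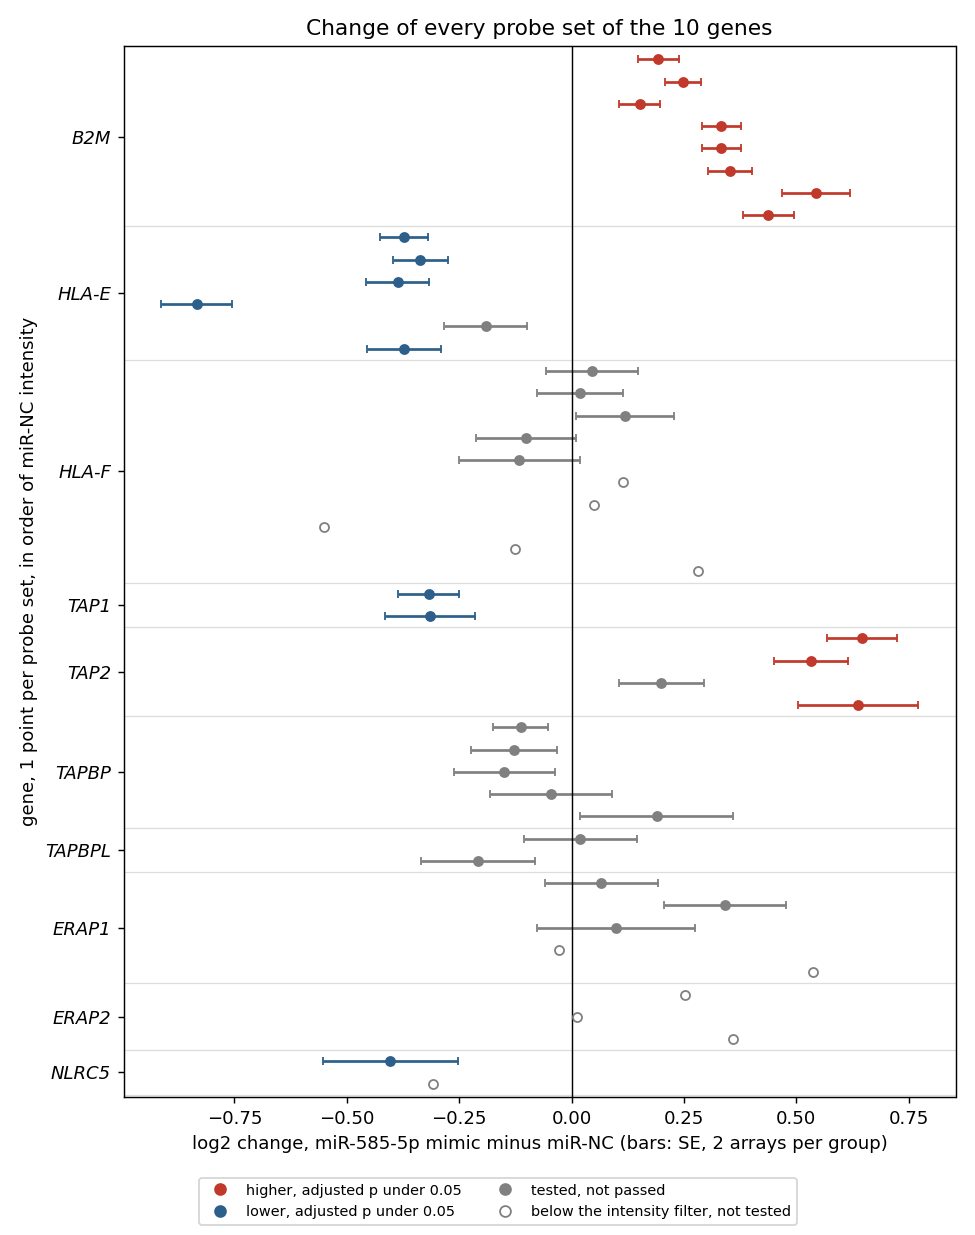
Log2 change, mimic minus miR-NC, of all 47 probe sets of the 10 genes (1 point each, bars are limma's moderated SE with 2 arrays per group, filled points were tested). All B2M points lie right of 0 and all HLA-E and TAP1 points left of it, TAP2 reaches 0.65, and the points of HLA-F, TAPBP and ERAP1 lie on both sides.

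The subunits of the peptide transporter went opposite ways. TAP1 and TAP2 encode the ATP-driven pump that carries peptides from the cytosol into the endoplasmic reticulum, and the pump works only as a heterodimer of both. TAP2 read 395 and 405 on the mimic arrays, against 241 and 271 on the miR-NC arrays, a log2 change of 0.65 ± 0.076 (SE, limma adjusted p = 3.31e-05), 1.57-fold higher. TAP1 read 330 and 318 on the mimic arrays, against 409 and 398 on the miR-NC arrays, a log2 change of -0.32 ± 0.065 (SE, limma adjusted p = 0.00172). Neither gene's arrays overlapped between groups. Of 4 TAP2 probe sets 3 rose, at 0.53 to 0.65, and the other was at 0.20, while both TAP1 probe sets fell, at -0.32 and -0.31. The log2 difference TAP2 minus TAP1 was 0.26 and 0.35 on the mimic arrays, against -0.77 and -0.55 on the miR-NC arrays, a change of 0.96 (exact permutation p = 0.333, the smallest possible). This pair too was chosen with the directions known, so the difference restates the changes of TAP1 and TAP2. Both genes kept direction and call in all 16 alternatives, TAP2 between 0.31 and 0.73 and TAP1 between -0.66 and -0.27, the low end of each being the poly(A) scaling.

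TAP1 and TAP2 lie beside the genes of immunoproteasome subunits in the class II region of the MHC, in the order TAP2, PSMB8, TAP1, PSMB9 (GRCh38.p14, chr6:32821831-32859851 over the 4 genes). PSMB8 and PSMB9 encode catalytic subunits that interferon gamma exchanges into the proteasome, which shifts its cleavage towards peptides fit for class I. PSMB9 read 446 and 462 on the mimic arrays, against 191 and 208 on the miR-NC arrays. PSMB8 read 757 and 755 on the mimic arrays, against 595 and 593 on the miR-NC arrays. Their log2 changes were 1.19 ± 0.073 and 0.35 ± 0.055 (SE, limma adjusted p = 2.97e-07 and 2.86e-04), so TAP1 fell between neighbours that rose. PSMB8 was at 0.0084 and PSMB9 at 0.85 with the poly(A) spikes. The dimmest PSMB9 probe set was at -0.15 and did not pass. The starts of TAP1 and PSMB9 are 488 bases apart on opposite strands, and the log2 difference PSMB9 minus TAP1 was 0.44 and 0.54 on the mimic arrays, against -1.10 and -0.93 on the miR-NC arrays, a change of 1.51 (exact permutation p = 0.333, the smallest possible). That difference likewise restates changes already known when the pair was chosen.

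The stretches before these starts, and those of TAP2 and B2M, are shown because these genes work in 1 pathway and differ in direction. Each line gives the 250 bases before the RefSeq start (GRCh38.p14), 5' to 3' on the gene's own strand. Capitals mark matches on either strand, which can overlap, to GAAA followed after any 2 bases by GAAA (the core of the interferon-stimulated response element, bound by IRF proteins), CCAAT (the NF-Y box), TGACG (part of the CRE-like X2 box) and GGACTTTCC (an NF-kappa-B type site). The motifs were picked with these sequences and the results in view.
TAP1, chr6:32853705-32853954, minus strand: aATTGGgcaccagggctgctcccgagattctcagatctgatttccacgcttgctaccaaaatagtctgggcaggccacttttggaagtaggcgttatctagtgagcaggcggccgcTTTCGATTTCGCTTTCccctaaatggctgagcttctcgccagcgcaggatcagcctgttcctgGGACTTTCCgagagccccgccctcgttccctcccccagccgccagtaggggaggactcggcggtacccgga
PSMB9, chr6:32853942-32854191, plus strand: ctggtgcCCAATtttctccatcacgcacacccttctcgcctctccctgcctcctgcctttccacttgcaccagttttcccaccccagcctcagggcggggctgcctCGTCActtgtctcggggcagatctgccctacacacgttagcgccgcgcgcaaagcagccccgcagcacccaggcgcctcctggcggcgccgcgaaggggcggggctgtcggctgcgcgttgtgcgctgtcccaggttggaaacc
TAP2, chr6:32838740-32838989, minus strand: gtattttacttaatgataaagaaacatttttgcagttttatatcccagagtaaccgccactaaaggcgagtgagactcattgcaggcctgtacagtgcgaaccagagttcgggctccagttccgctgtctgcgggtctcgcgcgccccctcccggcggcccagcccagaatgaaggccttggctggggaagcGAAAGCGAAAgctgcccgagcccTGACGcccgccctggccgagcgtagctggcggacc
B2M, chr15:44711267-44711516, plus strand: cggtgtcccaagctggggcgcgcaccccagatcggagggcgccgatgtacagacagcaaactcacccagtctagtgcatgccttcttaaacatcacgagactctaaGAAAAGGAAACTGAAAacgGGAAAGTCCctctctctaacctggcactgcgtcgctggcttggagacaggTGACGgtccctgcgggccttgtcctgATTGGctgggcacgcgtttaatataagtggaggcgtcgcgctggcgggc
The windows of TAP1 and PSMB9 run towards each other and overlap at their far ends, so the same NF-Y box appears in both.

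The RefSeq promoter table matched 8 of the 10 members, with 12 windows. The interferon element core was found in 6 of these genes (B2M, ERAP2, HLA-F, TAP1, TAP2 and TAPBP, 1 window each) and in 3.02% of all 35116 windows of the same length. CCAAT was found in B2M, ERAP1, HLA-F and TAP1 and in 32.0% of all windows. TGACG was found in B2M and TAP2 and in 21.2% of all windows, and GGACTTTCC in B2M and TAP1 and in 0.333%. Genes that rose (B2M, TAP2), that fell (TAP1) and that did not pass (HLA-F, TAPBP) all hold the interferon core in these windows. PSMB9, which rose, has no match to it within its own 250 bases. The TAP1 matches to the core and to GGACTTTCC lie between the starts of TAP1 and PSMB9, beyond the far end of the PSMB9 window. None of the 4 motifs is in all 4 windows printed. A match is a description of the letters only.

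Neither gene of the tapasin pair passed the test. TAPBP encodes tapasin, which bridges class I to TAP and favours tightly bound peptides. It read 907 and 828 on the mimic arrays, against 924 and 951 on the miR-NC arrays. Both mimic arrays were lower, but the log2 change of -0.11 ± 0.059 did not pass (SE, limma adjusted p = 0.131), and none of its 5 probe sets did. TAPBPL encodes TAPBPR, a tapasin relative that edits peptides away from the loading complex. It read 40.0 and 35.0 on the mimic arrays, against 36.7 and 37.1 on the miR-NC arrays, with overlapping groups (log2 change 0.020 ± 0.12, SE). On the poly(A) scale TAPBP was at -0.45 and passed, and TAPBPL was at -0.32.

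The aminopeptidases that trim peptides in the endoplasmic reticulum were dim here. ERAP1 read 35.5 and 30.1 on the mimic arrays, against 26.6 and 25.0 on the miR-NC arrays. The groups did not overlap. Its log2 change of 0.34 ± 0.13 just missed the threshold (SE, limma adjusted p = 0.0515) and passed in 7 of the 14 alternatives that gave a p, among them the shared median (adjusted p = 0.0411) and the fit without miR-NC replicate 1 (adjusted p = 0.0484). Without mimic replicate 1 the change was 0.22. The probe set next in brightness was at 0.067, and with the poly(A) spikes the gene was at 0.0026. ERAP2, at 10.8 and 12.7 on the mimic arrays, against 8.99 and 10.8 on the miR-NC arrays, was not above the controls with no human target in either group. All 3 of its probe sets were below those controls, so no fold is given. The RefSeq spans of ERAP1 and ERAP2 overlap each other.

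NLRC5, the class I transactivator, was at the edge of detection. It read 14.1 on both mimic arrays, not above the controls with no human target there, against 20.3 and 17.2 on the miR-NC arrays. With the mimic arrays raised to background where they lay under it, it was 1.28-fold lower with the mimic (limma adjusted p = 0.0397 on the values as deposited). That bound allows for no spread between arrays. The log2 change of NLRC5 was -0.40, and ran from -0.74 to -0.20 over its alternatives. Its other probe set was below background on every array. The call ended without mimic replicate 1 (adjusted p = 0.151), mimic replicate 2 (adjusted p = 0.159) or miR-NC replicate 1 (adjusted p = 0.184), and also with a second quantile normalization (adjusted p = 0.0628) or the hybridization spikes (adjusted p = 0.115).

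**Figure D3:**
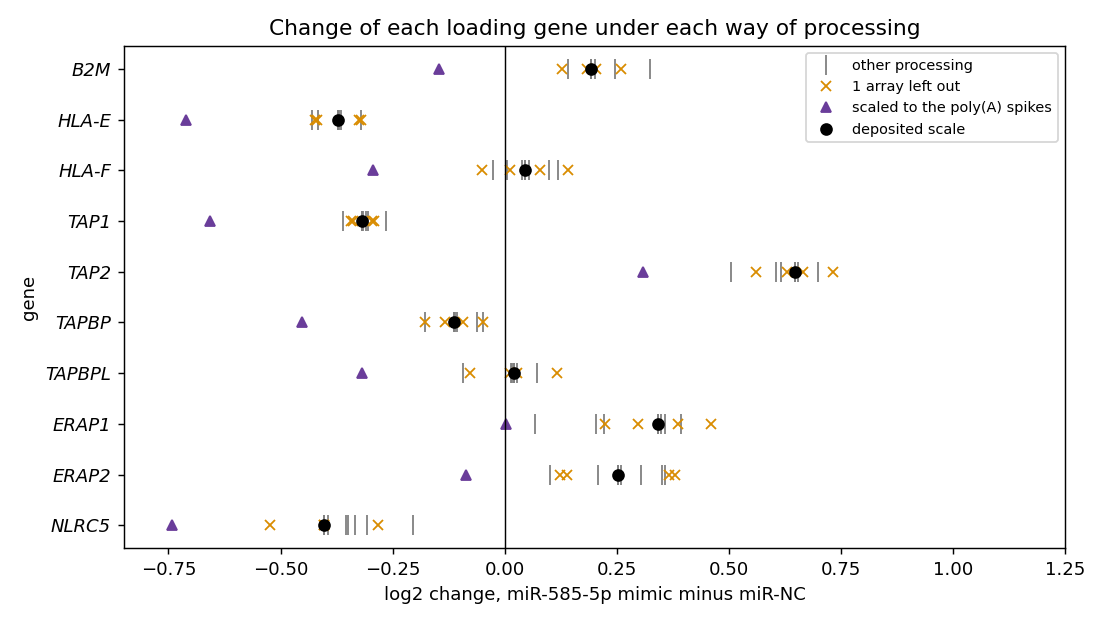
Log2 change, mimic minus miR-NC, of each of the 10 genes on the deposited scale (black dot) and under each alternative (grey bars for other processing, orange crosses with 1 array left out, purple triangles scaled to the poly(A) spikes). TAP2 stays right of 0 and HLA-E, TAP1, TAPBP and NLRC5 left of it in every alternative drawn, while B2M crosses 0 with the poly(A) spikes.

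Of the other proteins that drive class I transcription, 17 of 20 listed genes were tested, and 5 rose and 7 fell, with a median log2 change of -0.19. For this list and those that follow, the shares over all genes tested are 55.0% passed, 28.1% higher and 26.9% lower. The counts of the lists were not tested against these shares. NFYC, the NF-Y subunit that pairs with NFYB through histone folds, read 80.6 and 81.6 on the mimic arrays, against 284 and 263 on the miR-NC arrays, a log2 change of -1.75 ± 0.084 (SE, limma adjusted p = 5.52e-08), and all 6 of its probe sets above background fell. The probe sets of the other NF-Y subunits did not share a direction. The brightest NFYB probe set was at -0.42 while another passed at 0.63, and the brightest NFYA probe set was at -0.26 while others passed at 0.40 and 1.22. RFX5, a subunit of the RFX complex, was at -0.29. The NFYA and RFX5 calls ended with the hybridization spikes (adjusted p = 0.108 and 0.0628). IRF9, the DNA-binding part of the interferon alpha response complex, was at -0.53. The chains of the interferon gamma receptor rose, IFNGR1 by 0.58 ± 0.053 and IFNGR2 by 0.54 ± 0.054 (SE). So did IRF1, which read 170 and 184 on the mimic arrays, against 128 and 124 on the miR-NC arrays (log2 change 0.49 ± 0.085). Another IRF1 probe set passed at 0.59, while those at 0.14 and -0.27, also above background, did not pass. NFYA and NFYB were named after their values were seen. On the hybridization spike scale 4 genes of the list were higher and 3 lower, and on the poly(A) scale 1 was higher and 12 were lower, with IRF1 at 0.15 and IFNGR1 at 0.24.

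Of 8 genes of the immunoproteasome and of proteasome assembly and activation, 6 rose and 1 fell, with a median of 0.33. Besides PSMB9 and PSMB8, the remaining immunoproteasome subunit PSMB10 was at 0.37 ± 0.065 and POMP, which assembles new proteasomes, at 0.45 ± 0.056 (SE). The gene that fell was PSME1 (PA28 alpha) at -0.26, named as the only one of its list. Scaled to the poly(A) spikes, the median was -0.0081 and 1 gene was higher and 2 lower. Of 11 cytosolic peptidases 2 rose and 4 fell, with a median of -0.015. Leucine aminopeptidase LAP3, which interferon gamma induces, rose by 0.68 ± 0.11 and bleomycin hydrolase BLMH by 0.64 ± 0.085 (SE). Puromycin-sensitive aminopeptidase NPEPPS fell by 0.58 on the log2 scale, reading 931 and 940.0 on the mimic arrays, against 1371 and 1433 on the miR-NC arrays. Neurolysin (NLN) was at -0.25, though another probe set above background was higher (0.37).

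Of 9 tested genes of class I folding and quality control in the endoplasmic reticulum, 5 rose and 2 fell, with a median of 0.28. UGGT1, which re-glucosylates badly folded glycoproteins and tests class I for good peptide, read 210 and 238 on the mimic arrays, against 99.1 and 117 on the miR-NC arrays (log2 change 1.05 ± 0.10, SE, limma adjusted p = 8.84e-06). The chaperone HSPA5 rose by 0.78 ± 0.052, the glucosidase subunit GANAB by 0.49 ± 0.063 and PDIA3, the disulfide partner of tapasin, by 0.52 ± 0.043 (SE). Calnexin (CANX) was at 0.28, though its probe sets above background ran from -1.45 to 1.46. The genes that fell were calreticulin (CALR), at -0.23 with its call lost on the hybridization spike scale (adjusted p = 0.0865), and the glucosidase MOGS, at -0.36. The other CALR probe set, also above background, was at 0.084 and did not pass. CANX, CALR and MOGS were named after their values were seen. On the poly(A) scale 2 were higher and 4 lower, and PDIA3 was at 0.18.

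Among 15 tested heavy chains of the class I fold other than the members, 6 rose and 2 fell, with a median of 0.17, and with the poly(A) spikes 2 were higher and 6 lower. The 2 that fell are ligands of the activating receptor NKG2D. MICB read 152 and 145 on the mimic arrays, against 457 and 431 on the miR-NC arrays, a log2 change of -1.58 ± 0.073 (SE, limma adjusted p = 4.48e-08), and MICA was at -0.53 ± 0.062. Another NKG2D ligand, ULBP2, rose, reading 51.4 and 53.1 on the mimic arrays, against 22.6 and 22.7 on the miR-NC arrays, a log2 change of 1.21 ± 0.12 (SE). AZGP1, a secreted lipid-binding relative, rose by 0.81 ± 0.12 (SE). MICA was named after its values were seen.

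Of 12 tested factors of class I traffic and turnover, 3 rose and 5 fell, with a median of -0.17. TMEM127, which acts with SUSD6 and WWP2 to send class I to lysosomes, read 115 on both mimic arrays, against 276 and 260.0 on the miR-NC arrays, a log2 change of -1.22 ± 0.079 (SE, limma adjusted p = 4.35e-07), and all 4 of its probe sets fell. WWP2 was at -0.34 and SUSD6 at 0.28, both named after their values were seen. TMEM129, a ubiquitin ligase of class I degradation, was at -0.70, the clathrin adaptor subunit AP1M1 at -0.43 and the ubiquitin ligase MARCHF9 at 0.50. Other TMEM129 probe sets above background passed at -0.63 and did not pass at -0.17 and -0.019. With the poly(A) spikes 0 were higher and 9 lower, SUSD6 being at -0.057.

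Class II genes other than IFI30 were dim. Of 8 tested, 3 fell and 0 rose, with a median of -0.26. IFI30, the lysosomal thiol reductase that opens antigens for class II loading, read 141 and 140.2 on the mimic arrays, against 534 and 522 on the miR-NC arrays, a log2 change of -1.91 ± 0.069 (SE, limma adjusted p = 9.17e-09). HLA-DPA1 read 25.5 and 24.0 on the mimic arrays, against 40.9 and 32.1 on the miR-NC arrays. Its other probe sets above background were at -0.23 and -0.22 and did not pass (limma adjusted p = 0.256 and 0.270). HLA-DOB was at background with the mimic and on miR-NC array 1. The bound on its fall, which allows for no spread between arrays, was 1.21-fold, and its other probe sets were below background on every array. With the poly(A) spikes 7 of the 8 passed as lower and 0 as higher.

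**Figure D4:**
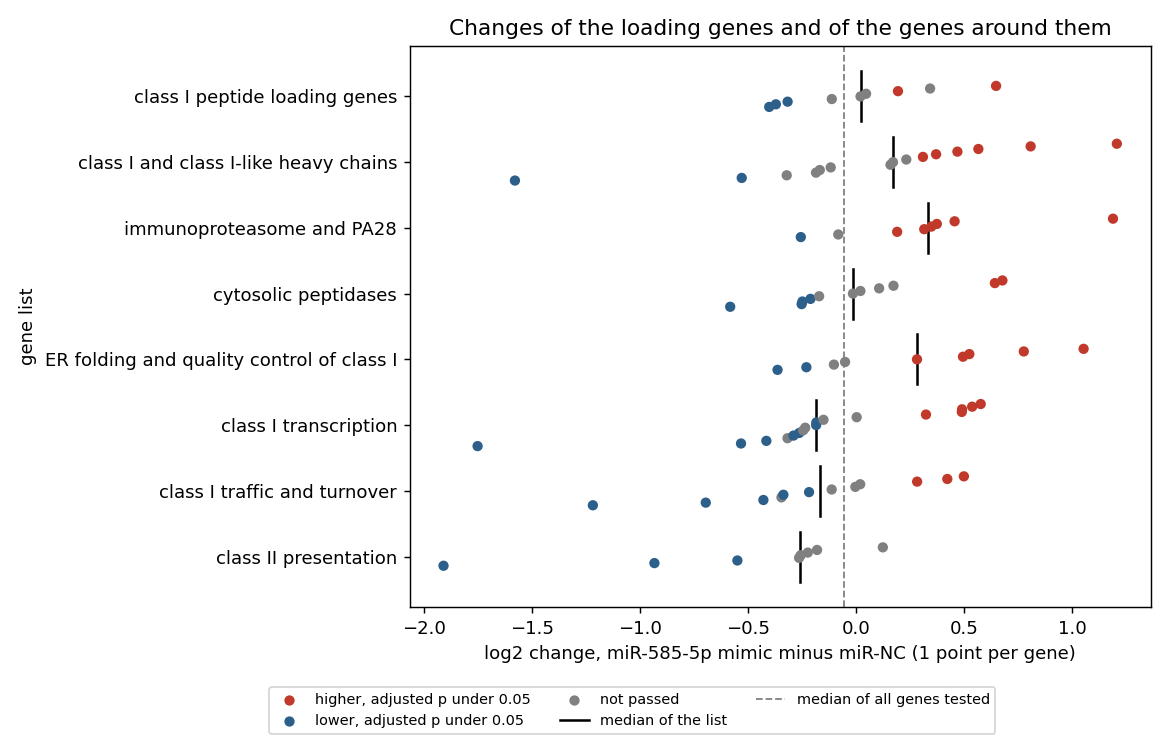
Log2 change, mimic minus miR-NC, of each tested gene (1 point per gene, coloured by the limma call) for the class I loading genes and 7 lists around them, with a black bar at each list's median and a dashed line at the median of all genes tested, -0.058. The loading genes spread to both sides with a median of 0.020, the immunoproteasome list has the highest median at 0.33 and the class II list the lowest at -0.26.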

How the data were processed

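RNA of 4 SCC-9 samples was measured on arrays, from 2 ug of total RNA each per the labels' protocols, and groups were taken from the sample titles. The deposited probe set intensity values were made with RMA, per the submitters' processing notes, and lie on a linear scale (2.09 to 17329). Their log2 was taken. Any earlier filter, and software versions, are not given in the sources used here.

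Gene names came from the array annotation (44988 with 1 symbol, 1832 with several, 2473 with none here), and the GRCh38.p14 gene table changed 0 symbols. Each gene took its brightest probe set by mean log2. Genes above the 30th percentile (12.04) went into limma (version 3.58.1, R 4.3.3; moderated variances that follow mean intensity, from lmFit and eBayes, with residual df 2 and prior df 8.35), two-sided, with Benjamini-Hochberg adjustment over all 14123 genes. A second fit covered every probe set with 1 symbol. The script was tested on simulated data. Background was the highest of 20 control probe sets with no human target on each array. A gene not above it on any array of a group has a bound, the other group's mean over the higher of background and the gene's own value. The bound allows for no spread between arrays.

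Named genes are the 10 members and, of each of 7 pathway lists, up to 4 genes past the threshold with the largest change, with IRF1 and RFX5. Members and lists were chosen with earlier results of these data known. Listed genes with no probe set used are left out. Replicate numbers are shared between groups, but same-numbered arrays did not deviate together (r = 0.061 across genes). Alternatives covered scaling, filters, choice of probe set, spread, replicate block, thresholds and single arrays. Sequences are from RefSeq.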

Additional observations from a re-analysis of the deposited data

How the results depend on the processing

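HLA-E and TAP1 stayed lower and TAP2 higher, each past the threshold, in all alternatives that gave a value, 15 for HLA-E, all of whose probe sets carry a cross-hybridization suffix, and 16 for each of the others. Scaling to the 12 poly(A) spike probe sets, which read 0.34 higher (log2) with the mimic, turned B2M to -0.15, HLA-F to -0.29 and TAPBPL to -0.32. With the mean of all probe sets HLA-F was at -0.026 and TAPBPL at -0.094. Without single arrays HLA-F lay between -0.050 and 0.14 and TAPBPL between -0.077 and 0.12. The cause was not tested. The count of 5 changed members was 3 without the suffixed probe sets, where 7 were tested, 1 at 1.5-fold or more, and 3 to 5 without single arrays, 3 without mimic replicate 1 or 2. In its other alternatives it was 4 to 6. Over all genes 7768 passed, 3148 of them by at least 1.5-fold and 5406 to 8128 without single arrays. With the poly(A) spikes 1573 genes were higher and 7816 lower, against 3966 and 3802 on the deposited scale. With a second quantile normalization 3658 were higher and 4059 lower, and with the hybridization spikes 4323 and 3127. Among the 36 tested probe sets of the members 19 passed, where 51.4% of all tested probe sets did. With the replicate number as a block 6 members, 21 of their probe sets and 8252 genes passed, ERAP1 being the member gained. Only 2 numbers are shared, so the block rests on 1 residual degree of freedom. Signals near background limit NLRC5, ERAP2 and the class II genes.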
